A study of Mus musculus with 5 samples.

Results

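The phosphofructokinase step of glycolysis is represented here by 7 genes, 4 of the PFKFB family (Pfkfb1, Pfkfb2, Pfkfb3 and Pfkfb4) and 3 of phosphofructokinase itself (Pfkl, Pfkm and Pfkp), found by symbol among the 29495 genes of the count tables. They were chosen by the measured difference of Pfkfb3, the log2 fold change and call that an earlier analysis of these same libraries gave, with the rest of both families added by name. Their own differences between the groups are therefore given as a description, with their errors. Calls and p-values for them come from the fits over all genes, and no conclusion is drawn from these. The libraries came from mouse glioma cells of the genotype p53-/-;NF1-/-;tdTomato+/-, from tumor-bearing mice of mixed background (CD-1 and C57BL/6), and cultured with olfactory bulb neurons of C57BL/6 pups of postnatal day 2 to 3. Insulin-like growth factor 1 (IGF-1), at 20 ng/mL overnight, was given in 3 of the libraries (IGF-1 replicates 3, 4 and 5), and 2 had no IGF-1 added (control replicates 1 and 2). All 5 libraries shared the genotype and the co-culture, and the glioma cells were sorted from the neurons on tdTomato before polyadenylated RNA was sequenced. The neurons had been plated in medium with 0.25 mg/mL insulin and 10% serum and then kept in media with 5% serum and B27, in both groups. The age of the tumor-bearing animals and the number of tumors behind the cells are not given in the sources used here.

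Phosphofructokinase commits glucose to glycolysis by adding a phosphate to fructose 6-phosphate. Its most potent activator is fructose 2,6-bisphosphate, which the PFKFB enzymes both make, with a kinase domain, and break down, with a phosphatase domain. PFKFB3 is the form in which the kinase most outweighs the phosphatase, and in brain it is known to be kept low in neurons by ubiquitin-dependent breakdown and to be more abundant in astrocytes and in proliferating cells. Total counts per library were 16944315 to 20144181. The libraries are not stated to come from separate cultures or animals, so errors and p-values cover library-to-library spread alone, and that spread may be technical. IGF-1 replicate 5 differed from IGF-1 replicates 3 and 4 by a chi-square per degree of freedom of 13.4 and 13.5, against 2.33 between replicates 3 and 4 and 2.29 between the controls, so values are also given without it. Glial markers were abundant, with Sox10 at 870 ± 65.8 CPM with IGF-1 and 806 ± 36.3 CPM in the controls (SD, n = 3 and 2). Markers of neurons were scarce: their 5 genes summed to 6.45 to 13.1 CPM with IGF-1 and 6.12 to 7.26 CPM in the controls, the highest sum being that of IGF-1 replicate 5, and Rbfox3 had 0 to 1 counts. Syt1 made up most of these sums, at 7.36 ± 3.46 CPM with IGF-1 and 5.11 ± 0.617 CPM in the controls. The part of neurons in the results was not tested. The 4 microglial markers found summed to 0.636 to 0.771 CPM with IGF-1 and 0.531 to 0.923 CPM in the controls, and the 3 endothelial ones to 0.685 to 1.48 CPM with IGF-1 and 1.18 to 1.21 CPM in the controls. The astrocyte markers summed to 64.1 to 74.1 CPM with IGF-1 and 74.0 to 76.5 CPM in the controls. Most of this was S100b, at 61.1 ± 5.77 CPM with IGF-1 and 64.1 ± 0.849 CPM in the controls. Gfap was at 7.64 ± 1.76 CPM with IGF-1 and 9.72 ± 0.855 CPM in the controls. Aqp4 and Aldh1l1 were scarce, at means of 0.631 and 0.973 CPM with IGF-1 and 0.556 and 0.874 CPM in the controls. In such bulk libraries, fewer cells of a type and less RNA per cell cannot be told apart.

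Pfkfb3 is annotated with 2 start regions, and both are printed because the count tables sum all transcripts of the gene and cannot show which start was used. Each window runs from 250 bases before to 50 bases after an annotated start and is taken from RefSeq on GRCm38.p6. Capitals mark the letters ACGTG, the core of the hypoxia response element to which HIF-1 binds, or TGACG, the core of the cyclic AMP response element, read on either strand.
Pfkfb3 distal start, chr2:11553880-11554179, minus strand: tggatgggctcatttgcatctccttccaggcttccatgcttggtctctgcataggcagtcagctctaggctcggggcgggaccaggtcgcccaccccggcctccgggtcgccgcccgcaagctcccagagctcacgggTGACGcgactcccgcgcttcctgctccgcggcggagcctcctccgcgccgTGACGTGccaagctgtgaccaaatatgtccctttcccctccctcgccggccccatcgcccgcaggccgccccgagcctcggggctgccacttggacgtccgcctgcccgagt
Pfkfb3 proximal start, chr2:11502041-11502340, minus strand: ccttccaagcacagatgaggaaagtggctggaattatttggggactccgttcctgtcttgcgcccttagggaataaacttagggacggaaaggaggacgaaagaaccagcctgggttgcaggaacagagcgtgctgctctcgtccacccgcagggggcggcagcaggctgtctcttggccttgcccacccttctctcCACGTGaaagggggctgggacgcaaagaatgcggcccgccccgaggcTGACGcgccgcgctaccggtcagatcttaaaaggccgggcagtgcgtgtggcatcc
The starts of the windows lie 51.8 kb apart. In the distal window an ACGTG begins at -60 and overlaps a TGACG that begins at -62, and another TGACG begins at -112. In the proximal window the letters CACGTG, an E-box that holds ACGTG on both strands, begin at -53, and a TGACG begins at -6. Both windows are rich in G and C, at 69.7% and 61%, beside a median of 52.7% over all 32851 promoter windows of the table.

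ACGTG was found in 6 of the 16 windows of the 7 genes, in those of Pfkfb2, Pfkfb3 and Pfkm, and in 19.6% of all promoter windows. CACGTG was found in 3 of the 16 and in 7.15% of all windows, and TGACG in 4 of the 16 and in 20.8% of all. The site of EGR factors, GCGNGGGCG, was found in 1 window each of Pfkfb2 and Pfkp, and in 5.55% of all windows. The FOXO site GTAAACA, the AP-1 site TGANTCA and the CArG box of serum response factor were found in 0 of the 16 windows, against 3.65%, 7.81% and 1.63% of all windows. Some windows of a gene overlap each other, and a match describes these letters only.

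Pfkfb3, the inducible form, is the gene chosen for its difference, so its standing apart among the 4 PFKFB genes follows from the choice. It was read at 51.6, 51.6 and 52.5 CPM (the count relative to the library total, scaled by TMM factors) in IGF-1 replicates 3, 4 and 5, and at 29.5 and 28.1 CPM in control replicates 1 and 2. The groups did not overlap, with IGF-1 higher, as in 16.2% of all genes tested. The 3 IGF-1 libraries lay close together, with a coefficient of variation of 0.973%. Counting error alone would give 3.05% to 3.27% at their 936 to 1072 counts. The mean was 51.9 ± 0.505 CPM with IGF-1 and 28.8 ± 0.989 CPM in the controls (SD, n = 3 and 2), a 1.80-fold level with a 95% interval of 1.60 to 2.03. On the log2 scale this is 0.85 with an SE of 0.08, and 0.84 with an SE of 0.08 without IGF-1 replicate 5.

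**Figure D1:**
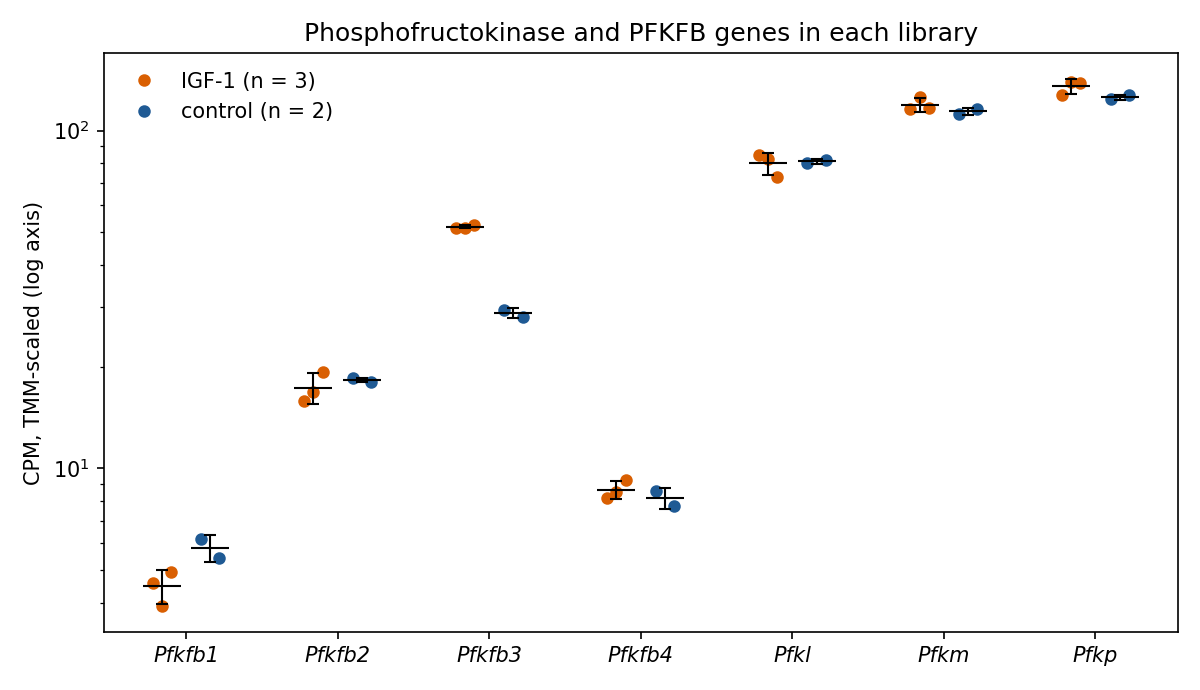
CPM (TMM-scaled, log axis) of the 7 genes in each library, IGF-1 libraries left of the controls, with a point for each library and black bars for the mean and SD (n = 3 and 2). Pfkfb3 lies at 51.6 to 52.5 CPM in the IGF-1 libraries and 28.1 to 29.5 CPM in the controls, and the points of Pfkfb2, Pfkfb4, Pfkl and Pfkm overlap between the groups.

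The other 3 PFKFB genes gave smaller differences with wider intervals. Pfkfb2, the heart form, whose kinase activity is known to be raised by phosphorylation downstream of insulin and Akt, was read at 15.8, 16.8 and 19.3 CPM with IGF-1 and at 18.5 and 18.1 CPM in the controls. The groups overlapped, with IGF-1 replicate 5 above both controls and replicates 3 and 4 below them. The log2 difference was -0.08 with an SE of 0.12 and a 95% interval of -0.33 to 0.18, and -0.16 without IGF-1 replicate 5. Pfkfb4, first described in testis and known as a hypoxia-inducible form in human tumor cells, was read at 8.15, 8.52 and 9.20 CPM with IGF-1 and at 8.54 and 7.73 CPM in the controls. These groups overlapped too, and the log2 difference of 0.09 (SE 0.14) had an interval of -0.23 to 0.40.

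Pfkfb1, the liver form, had every IGF-1 library below both controls, as in 16.9% of all genes tested. It was read at 4.57, 3.92 and 4.94 CPM with IGF-1 and at 6.17 and 5.43 CPM in the controls, from 74 to 107 counts per library. The log2 difference was -0.37 with an SE of 0.18 and an interval of -0.78 to 0.03. Without IGF-1 replicate 5 it was -0.45, with an interval of -0.85 to -0.06 that leaves out 0. In that fit 1502 of 15573 genes were lower at an unadjusted p under 0.05 by edgeR's quasi-likelihood test. Pfkfb1 was not called in either fit after adjustment over all genes. Counting error alone is 9.67% to 11.6% at these counts, near the coefficients of variation of 11.6% with IGF-1 and 9.09% in the controls.

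The 3 phosphofructokinase genes, whose products are subunits of the same tetrameric enzyme, had small differences, with intervals that include 0. Pfkm, the muscle-type subunit, was read at 116, 126 and 117 CPM with IGF-1 and at 112 and 116 CPM in the controls, a log2 difference of 0.06 (SE 0.07, interval -0.08 to 0.21). Pfkp, the platelet-type subunit, was read at 127, 140 and 138 CPM with IGF-1 and at 124 and 127 CPM in the controls. Its groups did not overlap, by a narrow margin, with IGF-1 higher, as in 16.2% of all genes tested. The log2 difference was 0.11 (SE 0.07, interval -0.04 to 0.25). Pfkl, the liver-type subunit, was read at 84.4, 82.5 and 73.0 CPM with IGF-1 and at 80.0 and 81.9 CPM in the controls. Its log2 difference was -0.02 (SE 0.08, interval -0.19 to 0.15) and turned to 0.04 without IGF-1 replicate 5, its lowest library.

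**Figure D2:**
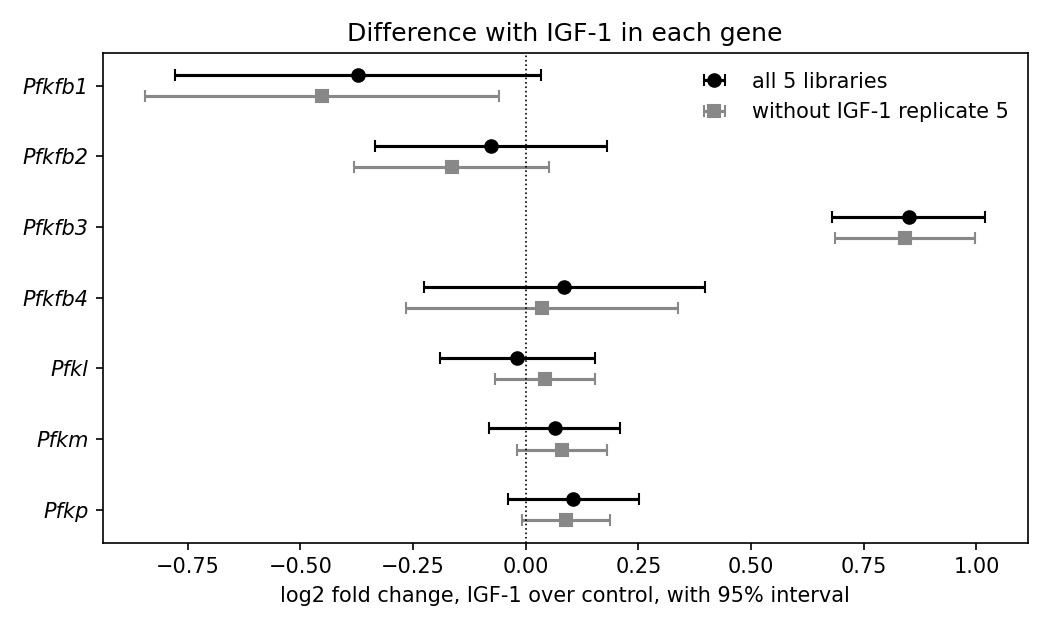
Log2 fold change of each gene, IGF-1 over control, with its 95% interval from edgeR, for all 5 libraries (black) and without IGF-1 replicate 5 (grey). Pfkfb3 stands at 0.85 and 0.84, and with all 5 libraries the intervals of the other 6 genes include 0.

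All 7 genes passed the filter on low counts, and edgeR's quasi-likelihood fit over all genes called 1 of them, Pfkfb3, higher and 0 lower. The same fit called 0.685% of 15919 genes higher and 0.339% lower. Without adjustment, p was under 0.05 for 1 of the 7, higher, beside 7.1% of all genes higher and 5.57% lower. DESeq2 called 1 of the 7, beside 1.39% of all genes higher and 0.581% lower, and edgeR without IGF-1 replicate 5 called 1, beside 5.49% and 3.65%. Since Pfkfb3 is the reason for the choice of these genes, nothing is read from its call. The call did not hold in edgeR without control replicate 1 (log2 difference 0.89) or without control replicate 2 (0.82). In each of those fits edgeR called 0 genes of the whole table higher and 0.012% lower. Higher genes with an unadjusted p under 0.05 then numbered 680 without control replicate 1 and 546 without control replicate 2. DESeq2 called 30 higher in the first case and 22 in the second, Pfkfb3 among them. Groups that did not overlap were seen for 2 of the 7 genes in the higher direction and 1 in the lower, beside 16.2% and 16.9% of all genes tested. The median log2 difference was 0.06 over the 7 genes and -0.01 over all genes tested.

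Per length of exon, the phosphofructokinase genes were the more abundant set in every library. Summed over its 3 genes, phosphofructokinase stood at 92.7 ± 3.37 CPM per kb with IGF-1 and 89.0 ± 1.75 CPM per kb in the controls. The 4 PFKFB genes summed to 17.5 ± 0.775 CPM per kb with IGF-1 and 14.0 ± 0.660 CPM per kb in the controls (SD, n = 3 and 2), a ratio of 1.25. Without Pfkfb3, the other PFKFB genes summed to 8.11 ± 0.684 CPM per kb with IGF-1 and 8.82 ± 0.481 CPM per kb in the controls. Units of PFKFB for every 100 units of phosphofructokinase per kb were 18.8, 17.7 and 20.3 in the IGF-1 libraries. In the controls they were 16.5 and 15.04. The PFKFB sum holds Pfkfb3, the gene chosen for its difference, so nothing is read from this separation. The PFKFB sums without Pfkfb3 overlapped, at 7.73, 7.71 and 8.90 CPM per kb with IGF-1 and 9.16 and 8.48 CPM per kb in the controls.

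In all 5 libraries the order of levels per kb was Pfkm, Pfkp, Pfkl, Pfkfb3 and Pfkfb2. Pfkm stood at 39.8 ± 1.87 CPM per kb with IGF-1 and 38.1 ± 0.919 CPM per kb in the controls, and Pfkp at 31.4 ± 1.56 with IGF-1 and 29.2 ± 0.472 in the controls. Pfkl stood at 21.4 ± 1.64 CPM per kb with IGF-1 and 21.7 ± 0.355 CPM per kb in the controls. Pfkfb3 stood at 9.40 ± 0.0914 CPM per kb with IGF-1 and 5.21 ± 0.179 CPM per kb in the controls, and Pfkfb2 at 3.44 ± 0.357 with IGF-1 and 3.64 ± 0.0575 in the controls. No 2 neighbours among these 5 genes overlapped within a group. The lowest places changed hands: Pfkfb4 was above Pfkfb1 in each of the 3 IGF-1 libraries, where their ranges overlapped (Pfkfb4 2.34 to 2.64 and Pfkfb1 1.92 to 2.43 CPM per kb). Pfkfb1 was above Pfkfb4 in both controls (Pfkfb1 2.67 to 3.03 and Pfkfb4 2.22 to 2.45 CPM per kb). With the length of the principal transcript in place of all exons, Pfkfb1 was the higher of this pair in both groups, at 2.57 against 2.47 CPM per kb with IGF-1 and 3.34 against 2.33 CPM per kb in the controls.

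Pfkfb3 made up 54.7%, 54.8% and 51.6% of the PFKFB level per kb in the IGF-1 libraries and 36.8% and 37.5% in the controls. The mean share was 53.7% ± 1.81 with IGF-1 and 37.2% ± 0.471 in the controls (SD, n = 3 and 2), a difference of 16.5 percentage points. The shares of the other PFKFB genes were lower with IGF-1 in every library. Pfkfb2 held 19.6% ± 1.21 with IGF-1 and 25.9% ± 0.809 in the controls, Pfkfb1 12.5% ± 1.09 with IGF-1 and 20.3% ± 0.891 in the controls, and Pfkfb4 14.1% ± 0.367 with IGF-1 and 16.6% ± 0.389 in the controls. Shares of a whole must sum to 100%, so these are tied to the share of Pfkfb3. The level of Pfkfb1 itself was also lower, at 2.20 ± 0.255 CPM per kb with IGF-1 and 2.85 ± 0.259 CPM per kb in the controls. Per kb, Pfkfb3 was at 2.75 ± 0.250 times the level of Pfkfb2 with IGF-1 and at 1.43 ± 0.0266 times in the controls. Against Pfkfb4 it was at 3.81 ± 0.197 times with IGF-1 and at 2.24 ± 0.0808 times in the controls. Because Pfkfb3 was chosen for its difference in these libraries, nothing is read from its larger share or from these ratios.

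The makeup of phosphofructokinase was close in both groups. Pfkm held 42.9% ± 0.500 of the phosphofructokinase level per kb with IGF-1 and 42.8% ± 0.194 in the controls. Pfkp held 33.9% ± 1.45 with IGF-1 and 32.8% ± 0.114 in the controls, and Pfkl 23.1% ± 1.67 with IGF-1 against 24.5% and 24.3% in control replicates 1 and 2. Within the IGF-1 group the shares of Pfkp ranged from 32.6% to 35.5% and those of Pfkl from 21.6% to 24.9%, with replicate 5 at the Pfkp maximum and the Pfkl minimum.

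**Figure D3:**
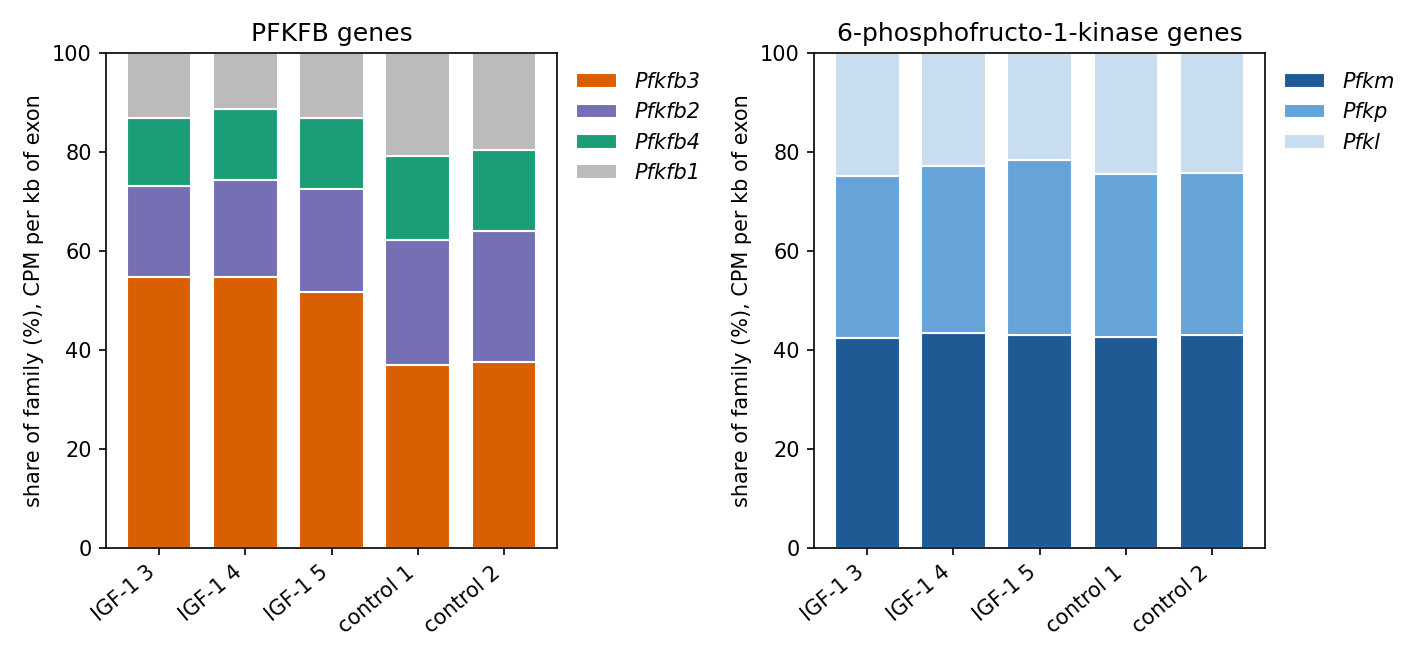
Share of each gene in the summed CPM per kb of exon of its family, in each library, for the PFKFB genes (left) and the phosphofructokinase genes (right), with IGF-1 libraries left of the controls. Pfkfb3, the gene chosen for its difference, takes 51.6% to 54.8% of the PFKFB level in the IGF-1 libraries and 36.8% to 37.5% in the controls. Pfkm stays between 42.4% and 43.4% in all 5 libraries.

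The transcripts of the 7 genes share 0 words of 50 bases with each other in a mouse transcript set (GENCODE M21, GRCm38), so reads of that length would not be confused among them. Some overlap other genes. Exons of Pfkp overlap those of Pitrm1 on the opposite strand over 748 bases (17.4% of Pfkp exon bases), and whether counting used strand is not given, so reads there cannot be told apart. Pitrm1 had 3361, 3568 and 3221 counts with IGF-1 and 3197 and 3284 in the controls. Pfkfb2 shares 1241 exon bases (24.7% of its own) with Gm29427, a protein-coding gene annotated over it on the same strand. Gm29427 had 0 to 1 counts per library. How reads in shared bases were counted is not given. If they were left out of both genes, Pfkfb2 is understated per kb, and the share of Pfkfb3 overstated. Pfkfb2 also shares 154 bases with Yod1 on the opposite strand. The share of words of 50 bases that occur in other genes was 17.3% for Pfkfb2, 8.83% for Pfkm, 5.1% for Pfkp, 0.727% for Pfkfb1, 0.376% for Pfkfb3, 0.0298% for Pfkl and 0% for Pfkfb4. Pfkm shared such words with Gm26513, which had 16, 19 and 41 counts with IGF-1 and 15 and 30 in the controls.

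Around this step, 8 lists of 78 genes were examined, of which 69 passed the filter on low counts. EdgeR called 1 of the 69 higher, Tigar, and 0 lower, beside 0.685% and 0.339% of all genes tested. Without adjustment, 3 were higher and 1 lower at p under 0.05, beside 7.1% and 5.57% of all genes. By DESeq2, 2 were higher and 0 lower, beside 1.39% and 0.581% of all genes. The median log2 difference over the 69 genes was -0.01, equal to that over all genes tested at 2 decimals. Without IGF-1 replicate 5, 6 of 68 were called higher and 2 lower, where 5.49% and 3.65% of 15573 genes were called. The 6 were Hk2, Tigar, Rpia, Ero1a, Prkaa2 and Akt1, and the 2 were Pdk2 and Bnip3l, named here after their values were seen.

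Tigar encodes a phosphatase that breaks down fructose 2,6-bisphosphate, the product of the PFKFB kinases, and was first described in human cells as a p53-induced gene. It was read at 20.05, 21.3 and 23.3 CPM with IGF-1 and at 14.1 and 15.2 CPM in the controls. Every IGF-1 library lay above both controls, as in 16.2% of all genes tested. The lists and the naming of Tigar were set with earlier results of these data known. Tigar was higher by 0.56 on the log2 scale (SE 0.11), with an adjusted p of 0.0495 by edgeR's quasi-likelihood test. The call is at the edge of the threshold: under 13 alternatives the log2 difference lay between 0.50 and 0.62, and the gene was called in 4 and not called in 9, with adjusted p from 5.14e-04 to 0.906. Per kb, Pfkfb3 stood at 1.60 ± 0.106 times the level of Tigar with IGF-1 and at 1.30 ± 0.113 times in the controls. This ratio holds Pfkfb3, the gene chosen for its difference, so nothing is read from its change. The fructose 1,6-bisphosphatase genes, whose enzymes reverse the phosphofructokinase reaction, were low. Fbp1 was at 2.48 ± 0.380 CPM with IGF-1 and 2.10 ± 0.281 CPM in the controls (log2 0.24, adjusted p = 0.747 by edgeR), and Fbp2 had 0 to 3 counts per library.

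Upstream, among 6 tested genes of glucose uptake and hexokinase, edgeR called 0. Hk2 alone was under 0.05 without adjustment, and DESeq2 called it higher. It is the gene of an inducible hexokinase, and is named after its values were seen. Hk2 was read at 25.6, 25.8 and 22.1 CPM with IGF-1 and at 17.2 and 16.6 CPM in the controls, a log2 difference of 0.53 (SE 0.11) with an edgeR adjusted p of 0.0573. It was called without IGF-1 replicate 5 (log2 0.60), and over 13 alternatives its adjusted p ran from 4.90e-06 to 1. The most abundant genes of this list were Gpi1, the isomerase that makes the substrate of phosphofructokinase, at 361 ± 27.6 CPM with IGF-1 and 356 ± 6.87 CPM in the controls (log2 0.02), and the hexokinase gene Hk1 at 144 ± 5.03 CPM with IGF-1 and 134 ± 4.19 CPM in the controls (log2 0.11).

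Below the step, 0 of 11 genes of lower glycolysis were called by edgeR or DESeq2, while without adjustment 0 were higher and 1 lower. Eno1, the enolase gene, was at 1653 ± 181 CPM with IGF-1 and 1756 ± 15.2 CPM in the controls (log2 -0.09), and Gapdh at 1116 ± 173 CPM with IGF-1 and 1252 ± 3.34 CPM in the controls (log2 -0.17). The median of this list, relative to the control mean, was -0.03, -0.05 and -0.28 in IGF-1 replicates 3, 4 and 5, so replicate 5 was the lowest. Pgam2, of the muscle form of phosphoglycerate mutase, is named after its values were seen. It had the most positive difference of the list, 0.57 with an SE of 0.30 (edgeR adjusted p = 0.462), at 4.89 CPM in IGF-1 replicate 5 and 2.36 to 2.91 CPM in the other libraries. Among 13 genes of lactate and pyruvate fate edgeR and DESeq2 called 0, with 0 unadjusted. Ldha, of lactate dehydrogenase, was at a log2 difference of -0.12 and Pdha1, of pyruvate dehydrogenase, at -0.11. The 7 pentose phosphate pathway genes gave 0 calls by edgeR and DESeq2, also unadjusted, with Tkt at -0.04 and Taldo1 at 0.01.

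Genes tied to the control of PFKFB3 gave no calls with all libraries. Of 13 other hypoxia-inducible genes, 0 passed by either tool, or by edgeR without adjustment. Kdm3a, a histone demethylase gene, was at -0.06 and the mitophagy receptor gene Bnip3l at -0.15. Of 6 genes of the hypoxia-inducible factor and its control both tools called 0, also unadjusted, with Hif1a at -0.06, Epas1 at 0.03 and Arnt, which encodes their partner, at -0.11. Of 11 genes of the turnover and phosphorylation of PFKFB3 both tools called 0, and 1 was higher without adjustment. Fzr1 and Btrc, whose products direct PFKFB3 to breakdown, were at 0.01 and 0.00, and the most abundant, Prmt1 and Fbxw11, at -0.04 and 0.05. RNA levels do not show the amount or activity of these proteins.

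**Figure D4:**
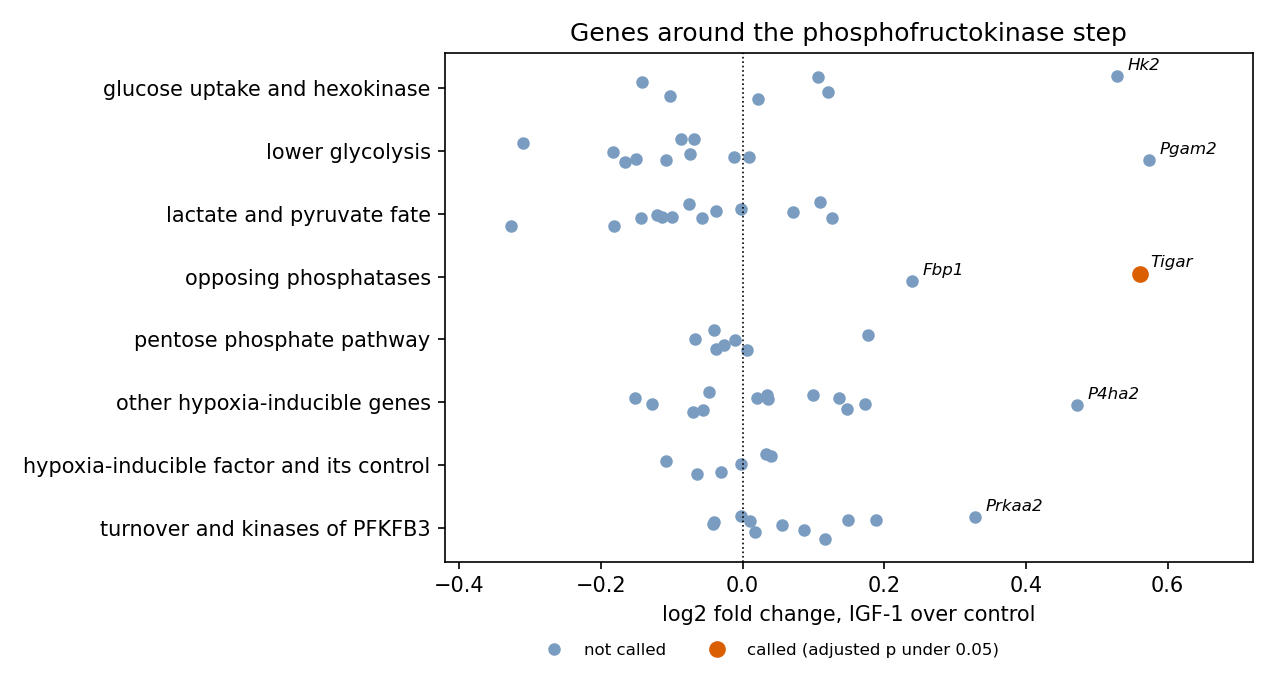
Log2 fold change, IGF-1 over control, of the 69 tested genes in 8 lists around the phosphofructokinase step, each point a gene, orange where edgeR's adjusted p was under 0.05 and jittered vertically. Tigar, at 0.56, is the 1 called gene, Hk2 stands at 0.53 without passing, and most other points lie near 0.

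The genes whose pattern over the 5 libraries was most like that of Pfkfb3 were sought among 10479 genes of at least 5 CPM, by the root mean square difference of log2 CPM centred on each gene's mean. They were Srf, the serum response factor, at 0.035, Coq10b, a coenzyme Q binding protein gene, at 0.056, Stk40, of a kinase-like protein, at 0.059, Tcf7, a transcription factor of Wnt signalling, at 0.062, Pprc1, a transcriptional coactivator of the PGC-1 family, at 0.073, and the LIM-domain gene Fhl3 at 0.084. Srf was read at 68.8, 65.4 and 68.9 CPM with IGF-1 and at 37.0 and 35.6 CPM in the controls. Pprc1 was read at 106, 95.9 and 108 CPM with IGF-1 and at 64.0 and 57.5 CPM in the controls. These genes were chosen for a pattern like that of Pfkfb3, so their higher levels with IGF-1 follow from the choice. With 5 libraries, likeness of this kind is a description of these libraries.

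**Figure D5:**
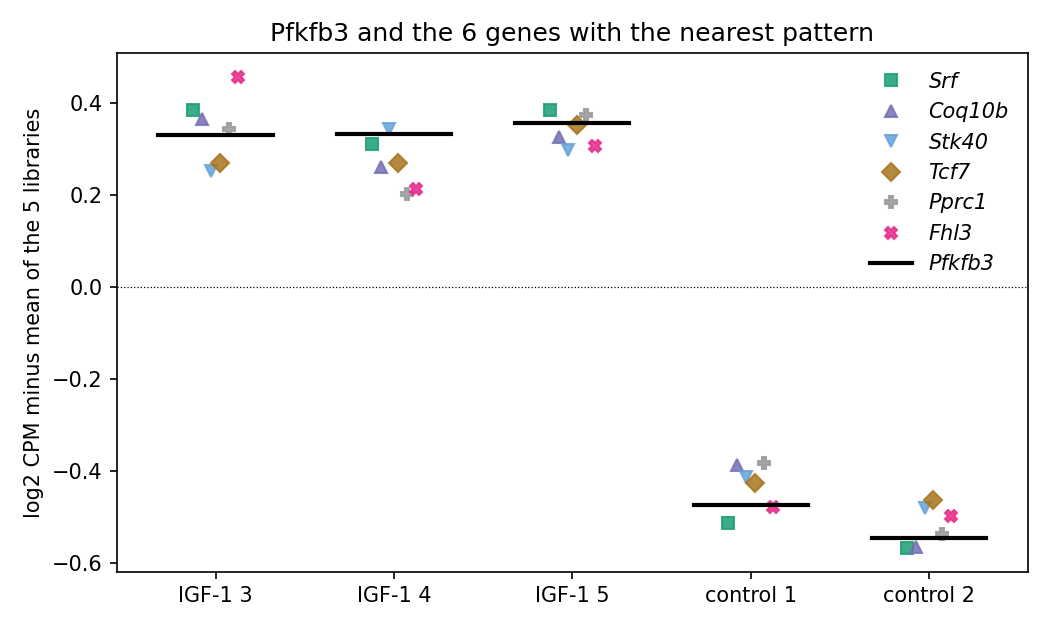
Log2 CPM minus the mean over the 5 libraries for Pfkfb3 (black bars) and the 6 genes nearest to it in pattern (coloured symbols), with IGF-1 libraries left of the controls. All 7 genes lie above their mean in each IGF-1 library and below it in both controls. This follows from the choice of Pfkfb3 by its difference and of the others by likeness to it. Srf follows Pfkfb3 most closely, at a root mean square difference of 0.035.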

How the data were processed

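Gene expression was measured by RNA sequencing in 5 libraries, 3 with IGF-1 and 2 controls, grouped by their titles. The authors deposited unnormalized read counts, 1 for each gene symbol. The submitters' processing notes name STAR 2.7.9a, cutadapt 3.4, DESeq2 1.28.1 and featureCounts 2.0.1, and the build GRCm39; their settings, the annotation and the use of strand are not given in the sources used here. Cx3cr1 and Cldn5, 2 of the markers, were not analysed here.

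Counts were modelled with edgeR 4.0.16 under R 4.3.3. Genes were filtered with filterByExpr (minimum count 10, minimum total 15), scaled with TMM factors and compared by the two-sided quasi-likelihood F-test, with Benjamini-Hochberg adjustment across the tested genes (threshold 0.05). The procedure was tested on simulated data. The SE of a log2 difference is its size over the square root of F, and its 95% interval uses the same fit. The biological coefficient of variation was 0.0774, and 0.0324 without IGF-1 replicate 5. Libraries of a group differed from each other beyond counting noise. All were kept as replicates, though that spread may be technical.

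Lengths are the union of exons in GENCODE M21 (GRCm38), matched by symbol, since no annotation of GRCm39 was used. CPM per kb divides TMM-scaled CPM by this length. Promoter windows are from RefSeq (GRCm38.p6) and matched all 7 genes.

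The genes, lists and naming rule were chosen with earlier results of these data known. The rule names all 7 genes, called list members or the 2 most abundant where none was called, Fbp1, Fbp2, Tigar, Hif1a, Epas1, Fzr1 and Btrc, and the genes nearest in pattern to Pfkfb3 and to the most abundant gene, the last of which are not reported here. Alternatives were RLE factors, total counts, keeping low-count genes, limma-voom (limma 3.58.1), DESeq2 1.42.0 and each library left out. Principal transcript lengths, and DESeq2 without IGF-1 replicate 5 or either control, were added after seeing the data.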

Additional observations from a re-analysis of the deposited data

How the results depend on the processing

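Pfkfb3 was chosen for its difference in these same libraries. When they are fitted again, nothing is read from the PFKFB sum or from the sign or share of Pfkfb3. Its log2 difference was above 0 under all 13 alternatives, at 0.82 to 0.89, and its call was lost in edgeR without either control. With 1 control left, its spread is taken to equal that of the IGF-1 libraries. The other genes kept their direction under these alternatives except Pfkl, which ran from -0.0574 to 0.0433 with each library left out in edgeR, being above 0 without IGF-1 replicate 5, and in DESeq2 was 0.0477 without that library and 0.0047 without control replicate 2; the cause was not tested. The difference in the PFKFB share of Pfkfb3, 16.5 percentage points, was 15.9 from counts not divided by length and 16.8 with principal transcript lengths, and ran from 16 to 17.6 with each library left out. The ratio of the PFKFB sums, IGF-1 over control, was 1.25 with total counts and 1.26 with principal lengths, though principal lengths changed the levels per kb themselves.

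Counts of called genes moved more. Over all genes, 109 higher and 54 lower became 385 and 221 with no filter and 180 and 75 with DESeq2. With each library left out in turn they ran from 0 to 855 higher and from 2 to 569 lower, the extremes being without a control and without IGF-1 replicate 5. DESeq2 called 30 and 7 without control replicate 1, 22 and 9 without control replicate 2, and 316 and 146 without IGF-1 replicate 5. Of the 69 genes around the step, 1 higher became 0 with total counts and with limma-voom, and 2 with no filter and with DESeq2. It ran from 0 to 6 with each library left out, and lower genes from 0 to 2. Among these genes DESeq2 called 0 higher without either control, and 1 lower without IGF-1 replicate 5. Intervals cover the spread between libraries only, and Pfkfb1, at 74 to 107 counts, is the gene that depth limits most. No paired analysis was possible because the groups share no replicate number.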
